A study of Mus musculus with 20 samples.

Results

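The genes described here encode CD300 and TREM receptors of myeloid cells and the adaptor that several of them signal through: Cd300a, Cd300lb, Cd300ld, Cd300lf, Trem1, Trem2, Trem3 and Tyrobp. They were chosen by gene symbol, as the 8 rows of a deposited table of 17787 genes that carry these names, and the choice singled out Tyrobp for libraries in which it is listed at 0. Tyrobp is therefore described library by library with no test, and the tests of the other 7 genes are descriptive, since the genes were picked with earlier results of these data known. All 8 passed the filter on low values, which kept genes that reached 10 normalized counts in 3 or more libraries. Trem1 and Trem3 passed it only through the libraries treated with LPS, so their rise with LPS was a condition of being tested.

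The cells were macrophages grown for 7 days from the bone marrow of male wild type C57BL/6J mice in medium with L929 cell supernatant. Each culture received 50 nM control siRNA or siRNA against Brg1 for 48 h. Brg1, encoded by Smarca4, is an ATPase of the SWI/SNF chromatin remodelling complexes. In the last 6 h the cells were given vehicle (ethanol and D-PBS), 100 ng/ml LPS, a bacterial cell wall component that activates macrophages, or LPS together with dexamethasone (Dex), a glucocorticoid drug, at 1 µM. Each siRNA had 3 vehicle, 3 LPS and 4 Dex+LPS libraries, 20 in all. A single siRNA product was used per arm, and the labels do not say that libraries came from separate mice or cultures, so p-values measure the spread between these libraries, which may be technical.

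CD300 and TREM receptors sit at the cell surface with an immunoglobulin-like domain outside the cell. Inhibitory members, such as CD300a and CD300LF, carry ITIM motifs in their own tails that recruit phosphatases. Activating members, such as TREM1, TREM2, TREM3 and CD300LB, have short tails and signal through adaptors with an ITAM motif, mainly TYROBP, while mouse CD300LD pairs with the related adaptor FcRγ, encoded by Fcer1g. TREM1 amplifies inflammatory signals from Toll-like receptors, and TREM2 binds lipids and lipoproteins and is known from tissue-resident and lipid-loaded macrophages.

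The libraries held between 13.7 M and 18.7 M reads. Smarca4 was lower with its siRNA in each treatment, at 340 to 365 against 1476 to 1626 with vehicle, 560 to 621 against 2751 to 2990 with LPS and 414 to 518 against 1745 to 2181 with Dex+LPS. All 12 macrophage markers looked for, among them Lyz2, Adgre1 and Csf1r, reached 10 in each group. Pairs of replicates differed by a chi-square per degree of freedom of 4.2 to 10.2 in 12 pairs. It was 34.2 to 44.8 in the 3 pairs with replicate 2 of control siRNA with Dex+LPS, and 11.8 to 27.2 in 9 further pairs with 1 of the 4 libraries whose codes come from another number series. Those 4 libraries, 1 in each LPS and Dex+LPS group, and that replicate stand apart, and results are given without them where they matter.

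LPS split the receptors in 2 directions. In both siRNA arms it lowered Cd300a, Cd300lb, Cd300ld, Cd300lf and Trem2 and raised Trem1 and Trem3. All 7 passed the test in both arms, against 73% of the 12061 genes tested in the control arm (36% higher, 37% lower) and 72.8% in the Brg1 arm (35.4% higher, 37.4% lower), so passing it was common. All 7 also had groups that did not overlap, against 77.6% of genes in the control arm and 78.8% in the Brg1 arm. The rise of Trem1 and Trem3 was a condition of being tested. Only the 5 members that fell can therefore be set beside these shares. These are bulk libraries, in which fewer cells of a kind and less RNA per cell cannot be told apart.

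Cd300a, the inhibitory receptor for phospholipids exposed on dying cells, stood at 6667, 6715 and 6296 normalized counts with control siRNA and vehicle and at 765, 688 and 775 with LPS. With Brg1 siRNA the values were 7933, 7539 and 7916 with vehicle and 1186, 1347 and 1071 with LPS. LPS libraries were far below vehicle libraries in both arms. The log2 fold change was -3.14 ± 0.11 (SE, adjusted p = 7.9e-15) with control siRNA and -2.70 ± 0.11 (adjusted p = 6.75e-14) with Brg1 siRNA.

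Cd300lf, an inhibitory receptor that binds ceramide and is the entry receptor of murine norovirus, was the member with the steepest fitted fall in the control arm. It went from 364, 363 and 310 with vehicle to 11.3, 4.63 and 12.8 with LPS, a change of -5.13 ± 0.28 (adjusted p = 8.04e-12). With Brg1 siRNA it went from 635, 578 and 566 to 42.4, 31.2 and 23.9, a change of -4.19 ± 0.28 (adjusted p = 1.58e-10). In the control LPS group only 26 reads of it were counted, so the ratio of vehicle to LPS was 35.8, with a 95% exact interval of 24.3 to 55.0 that covers counting error only.

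Cd300lb, an activating receptor that pairs with TYROBP, fell from 2602, 2270 and 2316 to 110, 143 and 152 with control siRNA, and from 1696, 1814 and 1577 to 26.2, 54.8 and 38.6 with Brg1 siRNA. The log2 fold changes were -4.15 ± 0.86 (adjusted p = 0.00031) and -5.43 ± 0.86 (adjusted p = 1.79e-05). Cd300ld, the activating receptor that pairs with FcRγ, had a smaller change of -1.19 ± 0.06 with control siRNA (adjusted p = 6.49e-12), from 3815, 3885 and 3825 to 1805, 1693 and 1569. With Brg1 siRNA it fell from 3728, 3733 and 3556 to 2063, 2237 and 2104, a change of -0.78 ± 0.06 (adjusted p = 2.67e-09). Both genes were lower in each LPS library than in any vehicle library of the same siRNA.

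Trem2 fell from 9652, 8604 and 8930 to 3578, 3431 and 3994 with control siRNA, a change of -1.31 ± 0.13 (adjusted p = 5.22e-08). With Brg1 siRNA it fell from 11205, 11497 and 10950 to 5761, 6904 and 5426, a change of -0.90 ± 0.13 (adjusted p = 5.99e-06). Among the 7 tested receptors, it kept the highest level per kilobase of exon in all 6 groups.

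Trem1 was close to absent with vehicle, with 10 reads over the 3 control libraries and 8 over the 3 Brg1 libraries. LPS brought it to 64.3, 50.9 and 53.5 normalized counts in the control arm and 41.1, 54.8 and 35.2 in the Brg1 arm. The ratio of LPS to vehicle was 19.9 (95% exact interval 10.5 to 42.4, counting error only) and 20.1 (9.86 to 47.8). The fitted log2 fold changes were 3.91 ± 0.34 (adjusted p = 8.01e-09) and 4.04 ± 0.34 (adjusted p = 4.94e-09), and the groups did not overlap.

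Trem3, its neighbour on chromosome 17, had 3 reads in each vehicle group. It was at 19.2, 17.4 and 22.5 with LPS and control siRNA and at 13.7, 16.2 and 17.0 with LPS and Brg1 siRNA, which is a ratio of 23.3 (7.56 to 117) and 19.4 (6.16 to 98.1). The test gave an adjusted p of 8.58e-09 and 1.73e-08. Trem1 and Trem3 are also genes of neutrophils, so neutrophil markers were looked at beside them. The summed level of the 9 of 10 listed markers found in the table was 72.0 to 118 with vehicle, 267 to 307 with LPS and 357 to 493 with Dex+LPS in the control arm. It was 109 to 134, 313 to 325 and 512 to 571 in the Brg1 arm. Of the 6 markers tested, LPS in the control arm raised 4 (S100a8, S100a9, Camp and Ngp) and lowered none, where 36% of all genes rose. Camp was at most 1.75 with vehicle in the control arm and 3.99 with vehicle in the Brg1 arm. It passed the filter only through treated libraries, so its rise with LPS was a condition of being tested. Dex then raised S100a8 alone, from a mean of 107.6 to 301, and lowered S100a9 and Ltf, so the further rise of the sum with Dex was carried by S100a8. Of all genes tested, Dex in the control arm raised 23.4% and lowered 25.2%. In the Brg1 arm LPS raised 3 markers, Camp among them, where 35.4% of all genes rose. Dex in that arm raised S100a8 and lowered 3, where 21.3% of all genes rose and 23% fell. Ly6g, Elane and Retnlg were absent or under 1 in each control LPS library. The part of neutrophils in the rise of Trem1 and Trem3 was not tested.

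**Figure D1:**
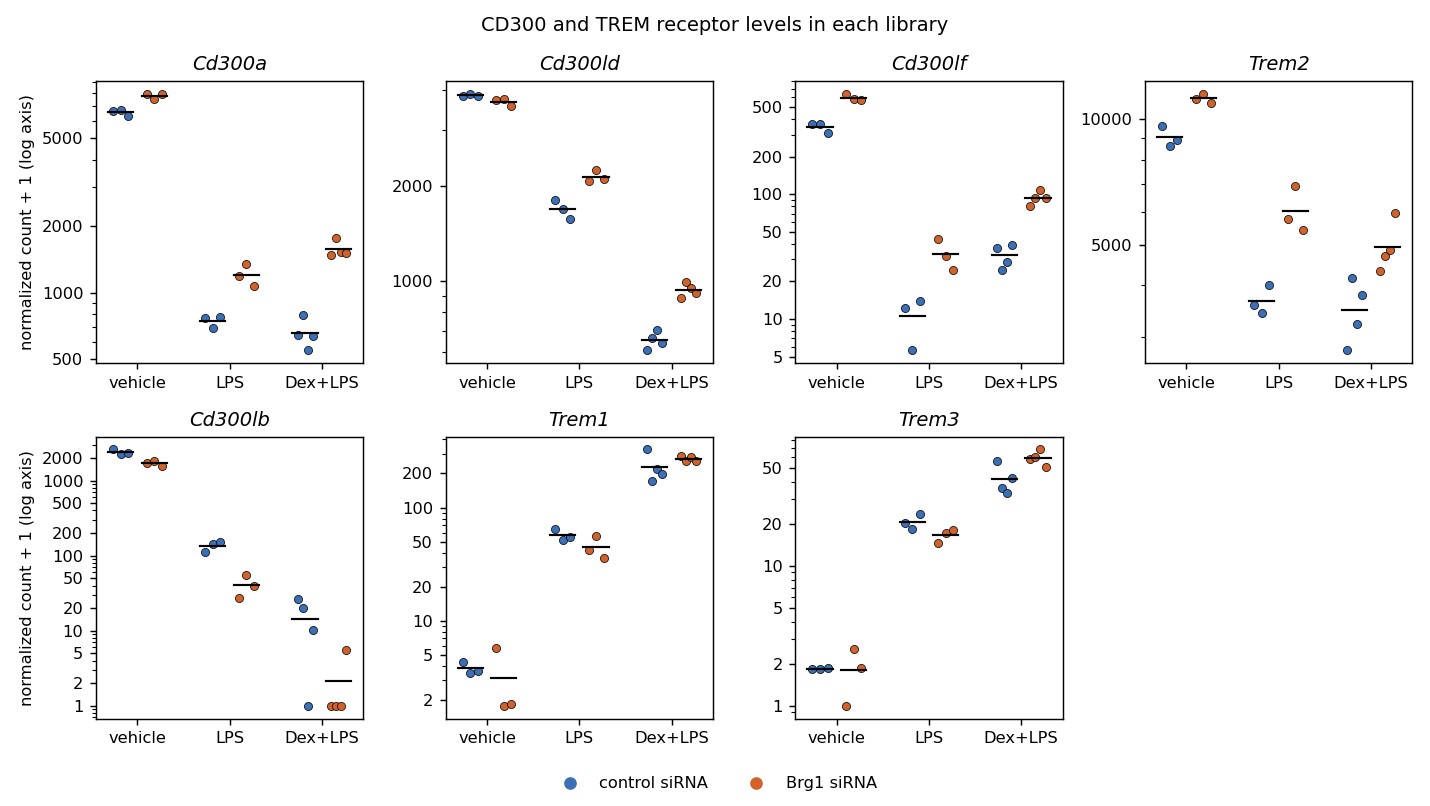
Normalized count plus 1 of the 7 tested receptors on log axes, 1 point per library, with bars at the group mean (3 vehicle, 3 LPS and 4 Dex+LPS libraries per siRNA). Cd300a, Cd300ld, Cd300lf, Trem2 and Cd300lb sit lower with LPS than with vehicle, and Trem1 and Trem3 sit higher with LPS and higher again with Dex+LPS.

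Adding Dex to LPS moved the receptors apart again. With control siRNA it raised Cd300lf, Trem1 and Trem3 and lowered Cd300lb and Cd300ld, so 5 of 7 passed the test, against 48.7% of genes tested (23.4% higher, 25.2% lower), and the same 5 had groups without overlap, against 46.8%. With Brg1 siRNA the same 5 passed in the same directions and Cd300a was also higher, so 6 of 7 passed, against 44.4% (21.3% higher, 23% lower), and the groups of these 6 did not overlap, against 46.8%. The LPS libraries serve in both the LPS and the Dex comparison, so the 2 are not independent.

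Trem1 rose beyond its LPS level, to 325, 172, 218 and 199 in the control arm and 286, 256, 278 and 256 in the Brg1 arm. Its log2 fold change against LPS alone was 1.97 ± 0.32 (adjusted p = 5.27e-05) and 2.62 ± 0.32 (adjusted p = 2.39e-06). Trem3 reached 55.3, 35.3, 32.6 and 41.3, and 57.2, 59.1, 67.3 and 49.9, with changes of 1.01 ± 0.28 (adjusted p = 0.00704) and 1.83 ± 0.28 (adjusted p = 4.11e-05). The lowest Dex+LPS library was above the highest LPS library for both genes in both arms.

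Cd300lf was lowered by LPS and partly brought back by Dex in both arms. It stood at 36.2, 23.5, 27.5 and 38.3 with Dex+LPS and control siRNA, above the 4.63 to 12.8 of LPS alone and far below the 310 to 364 of vehicle. With Brg1 siRNA it stood at 78.9, 92.5, 108 and 92.3, above the 23.9 to 42.4 of LPS alone. The changes were 1.69 ± 0.26 (adjusted p = 2.95e-05) and 1.52 ± 0.26 (adjusted p = 0.00011).

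Cd300lb and Cd300ld went the other way. Cd300lb was at 25.4, 19.2, 0 and 9.18 with Dex+LPS and control siRNA, and at 0, 0, 0 and 4.62 with Brg1 siRNA, which is 58 reads and 5 reads over 4 libraries. Its ratio of LPS to Dex+LPS was 10.1 (95% exact interval 7.65 to 13.6, counting error only) with control siRNA and 30.2 (12.5 to 95.1) with Brg1 siRNA. The test gave an adjusted p of 0.000507 and 0.000124. Cd300ld fell to 607, 662, 701 and 640 and to 888, 996, 950 and 921, changes of -1.37 ± 0.06 (adjusted p = 1.41e-12) and -1.19 ± 0.06 (adjusted p = 1.74e-11).

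Cd300a with control siRNA was at 642, 790, 548 and 636 with Dex+LPS, which overlaps its LPS range of 688 to 775 (-0.19 ± 0.10, adjusted p = 0.117). Without replicate 2 of control siRNA with Dex+LPS, the library at 790, that change was -0.29 with an adjusted p of 0.00968. With Brg1 siRNA Cd300a rose to 1484, 1760, 1530 and 1507, a change of 0.39 ± 0.10 (adjusted p = 0.00377). Trem2 did not pass the test in either arm. It was at 2792, 4167, 3231 and 3778 with control siRNA (-0.08 ± 0.12, adjusted p = 0.601) and at 4316, 4687, 4856 and 5942 with Brg1 siRNA (-0.29 ± 0.12, adjusted p = 0.0646). In the Brg1 arm Trem2 did pass without replicate 3 of LPS (-0.36, adjusted p = 0.0476) and without replicate 4 of Dex+LPS (-0.38, adjusted p = 0.0152), so that call rests on single libraries.

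Knockdown of Brg1 left 4 receptors higher in both treatments that contained LPS. Cd300a, Cd300ld, Cd300lf and Trem2 were higher with Brg1 siRNA than with control siRNA under LPS and under Dex+LPS. With vehicle Cd300a, Cd300lf and Trem2 were higher too, in groups that did not overlap, but they did not pass limma's test. Under LPS 4 of 7 passed, against 33.1% of genes tested (17.3% of them higher), and under Dex+LPS 5 of 7 passed, these 4 higher and Cd300lb lower, against 34.3% (19% higher, 15.3% lower). Groups did not overlap for 6 of 7 members under LPS, against 46.1%, and for 4 of 7 under Dex+LPS, against 29.2%. Without the 4 libraries of the other code series the counts were again 4 and 5.

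For Cd300a the difference under LPS was 743 ± 47.7 (SD, n = 3) against 1201 ± 139 (n = 3), a log2 fold change of 0.69 ± 0.11 (adjusted p = 7.17e-05). Under Dex+LPS it was 654 ± 100 (SD, n = 4) against 1570 ± 128 (n = 4), a change of 1.27 ± 0.09 (adjusted p = 7.66e-09). Within the main series of library codes the ratio of Brg1 to control siRNA was 1.55 under LPS and 2.41 under Dex+LPS, and in the other series, with 1 library per group, it was 1.74 and 2.37. Cd300lf was higher by 1.73 ± 0.28 (adjusted p = 0.000103) under LPS and 1.55 ± 0.24 (adjusted p = 5.95e-05) under Dex+LPS. For Cd300lf the ratios within codes were 4.17 and 3.20 in the main series and 2.43 and 2.41 in the other.

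Trem2 was higher by 0.71 ± 0.13 (adjusted p = 0.000367) under LPS and by 0.51 ± 0.11 (adjusted p = 0.00179) under Dex+LPS. Cd300ld was higher by 0.34 ± 0.06 (adjusted p = 0.000424) and 0.52 ± 0.05 (adjusted p = 6.98e-07). The groups of these 4 genes did not overlap in either treatment. The summed level of the 12 macrophage markers was higher in the Brg1 arm too, at 291265 to 308813 against 437924 to 450049 under LPS and 299501 to 350034 against 372476 to 383443 under Dex+LPS. Lyz2 and Cd14 made up most of that gain, and the markers did not all move together: limma called 6 of the 12 higher and Itgam lower under LPS, and 7 higher and Csf1r and Itgam lower under Dex+LPS. The 6 osteoclast markers summed to 1586 to 1665 against 641 to 718 under LPS and to 1041 to 1306 against 480 to 715 under Dex+LPS. The part of either shift in the receptor differences was not tested.

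Cd300lb moved opposite to the other CD300 members on chromosome 11 under LPS and under Dex+LPS. Under LPS it was 135 ± 21.9 (SD, n = 3) with control siRNA and 39.9 ± 14.4 (n = 3) with Brg1 siRNA, in groups that did not overlap. The linear model on log2 values did not call that difference (-1.78 ± 0.86, adjusted p = 0.125), while edgeR on the recovered reads (adjusted p = 0.00197) and DESeq2 (adjusted p = 0.0214) did. Under Dex+LPS the 58 control reads stood against 5 reads, a ratio of 10.2 (95% exact interval 4.11 to 32.4, counting error only), with a fitted change of -2.48 ± 0.75 (adjusted p = 0.0153). That call was lost without control replicate 1 (adjusted p = 0.058) or control replicate 2 (adjusted p = 0.0546), and the control library at 0, replicate 3, lay within the Brg1 range. Without replicate 3 the change was -3.51 (adjusted p = 2.84e-05).

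With vehicle no member passed limma's test of the knockdown, where 20.1% of the genes tested passed. An unadjusted p under 0.05 was reached by 3 of 7. The share of all genes at that looser threshold was not counted, so it cannot be read against the 20.1%. By edgeR and by DESeq2 on recovered reads 1 member passed, Cd300lf in each (adjusted p = 0.00363 and 4.51e-07). The groups nevertheless did not overlap for 5 of 7 members, against 46.1% of genes tested. Cd300a was at 6559 ± 229 (SD, n = 3) against 7796 ± 223 (n = 3), with a change of 0.25 ± 0.11 (adjusted p = 0.114). Cd300lf had 346 ± 30.8 against 593 ± 37.1, a change of 0.78 ± 0.28 (adjusted p = 0.0561), and Trem2 had 9062 ± 536 against 11217 ± 273, a change of 0.31 ± 0.13 (adjusted p = 0.11). Cd300lb had 2396 ± 180 against 1696 ± 118 and Cd300ld 3841 ± 37.8 against 3672 ± 101, with adjusted p of 0.769 and 0.549. The model shares 1 spread over the 6 groups, and the log2 values of Cd300lb were widest apart with Dex+LPS, where its counts ran from 0 to 25.4.

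Trem1 and Trem3 did not pass limma's knockdown test in any treatment. For Trem1 the change was -0.37 ± 0.34 (adjusted p = 0.438) under LPS and 0.27 ± 0.29 (adjusted p = 0.511) under Dex+LPS. For Trem3 it was -0.31 ± 0.30 (adjusted p = 0.473) and 0.52 ± 0.26 (adjusted p = 0.144), and with a pseudocount of 5 the latter passed (0.48, adjusted p = 0.0305). With vehicle both had too few reads to compare: 10 against 8 for Trem1 and 3 against 3 for Trem3. Leaving out the vehicle library of Brg1 siRNA that held most of the Trem1 reads, replicate 1, turned the Trem1 difference into a call (-1.06, adjusted p = 0.00522).

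**Figure D2:**
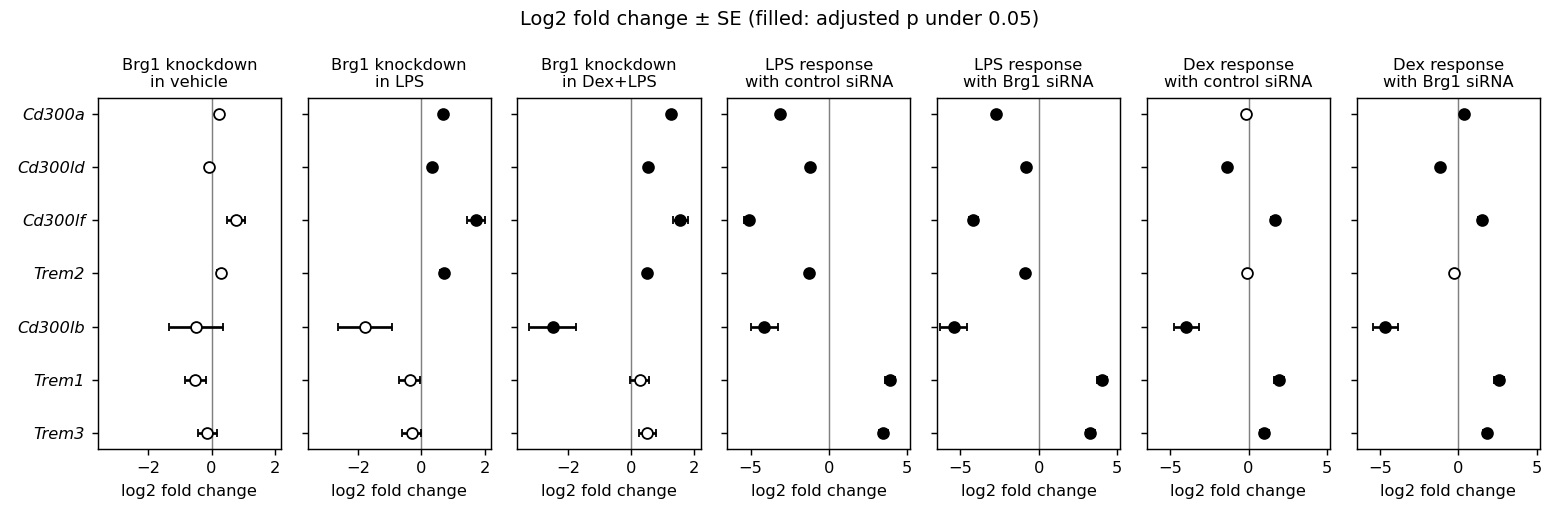
Log2 fold change of the 7 tested receptors (x axis, with bars of 1 SE) in 7 comparisons, filled where the adjusted p was under 0.05. In the knockdown panels Cd300a, Cd300ld, Cd300lf and Trem2 are filled and to the right of 0 under LPS and Dex+LPS, and no point is filled with vehicle.

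Whether the knockdown acted differently with and without LPS was tested as an interaction, which 11.4% of genes tested passed. Among the members 1 of 7 passed, Cd300ld. Its knockdown difference was 0.40 ± 0.09 higher under LPS than with vehicle (adjusted p = 0.00535, at most 0.0422 over its 19 alternatives). Cd300a (0.44 ± 0.15, adjusted p = 0.0697), Cd300lf (0.95 ± 0.39, adjusted p = 0.139) and Trem2 (0.40 ± 0.18, adjusted p = 0.187) did not pass, and Cd300a passed without replicate 3 of Brg1 siRNA with LPS (0.52, adjusted p = 0.0418). For the knockdown with Dex+LPS against LPS alone 3.97% of genes passed and again 1 of 7 members, Cd300a, with a difference of 0.58 ± 0.14 (adjusted p = 0.0232). That call was lost without the 4 libraries of the other code series (0.65, adjusted p = 0.0637). It was also lost when any of 5 libraries was left out: control LPS replicates 1 or 3, Brg1 LPS replicates 1 or 3, or Brg1 Dex+LPS replicate 2, with adjusted p between 0.0502 and 0.0737. Over all its alternatives the adjusted p ran from 0.00225 to 0.0737.

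The promoters of the 4 receptors that were higher with Brg1 siRNA under LPS and under Dex+LPS are printed to show what sequence these genes do and do not share. Each runs 5′ to 3′ on the gene's strand from 250 bases before the annotated start to 30 bases from it on, from RefSeq on GRCm38.p6, and position 0 is the start base. Capitals mark matches to 6 motifs searched on both strands: PU.1 (GAGGAAGT), the ETS core (GGAAGT, contained in the PU.1 motif), AP-1 (TGANTCA), C/EBP (TTGCNNAA), ISRE (GAAA and again GAAA with any 2 bases between) and the glucocorticoid response element (GNACA and TGTNC with any 3 bases between).
Cd300a, chr11:114889791-114890070, plus strand: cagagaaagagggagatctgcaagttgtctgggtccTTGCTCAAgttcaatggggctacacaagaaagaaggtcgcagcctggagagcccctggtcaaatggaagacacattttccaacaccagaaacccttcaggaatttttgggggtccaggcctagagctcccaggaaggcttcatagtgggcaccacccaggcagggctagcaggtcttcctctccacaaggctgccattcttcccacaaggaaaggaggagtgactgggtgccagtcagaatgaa
Cd300ld, chr11:114989857-114990136, minus strand: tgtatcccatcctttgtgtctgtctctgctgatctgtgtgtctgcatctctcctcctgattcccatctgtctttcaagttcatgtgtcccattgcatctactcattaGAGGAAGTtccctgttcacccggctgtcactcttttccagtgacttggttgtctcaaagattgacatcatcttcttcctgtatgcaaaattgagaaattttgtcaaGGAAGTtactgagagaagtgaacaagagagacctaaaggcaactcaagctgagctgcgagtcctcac
Cd300lf, chr11:115133963-115134242, minus strand: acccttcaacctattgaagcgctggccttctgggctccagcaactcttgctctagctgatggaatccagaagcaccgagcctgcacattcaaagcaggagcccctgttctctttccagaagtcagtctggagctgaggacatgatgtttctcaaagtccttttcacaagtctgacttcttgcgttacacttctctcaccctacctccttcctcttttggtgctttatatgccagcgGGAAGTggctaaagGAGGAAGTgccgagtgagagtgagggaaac
Trem2, chr17:48346151-48346430, plus strand: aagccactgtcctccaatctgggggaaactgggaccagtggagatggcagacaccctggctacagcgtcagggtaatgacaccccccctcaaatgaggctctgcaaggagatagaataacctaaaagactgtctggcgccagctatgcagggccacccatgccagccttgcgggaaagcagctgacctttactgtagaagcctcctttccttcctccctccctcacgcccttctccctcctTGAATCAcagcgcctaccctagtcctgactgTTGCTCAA

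Promoter sequences were matched for 6 of the 8 members. The PU.1 motif, named for a myeloid transcription factor, was in 2 of these 6, Cd300ld at -143 to -136 and Cd300lf at 0 to 7, and in 2.82% of all 32851 promoters. The ETS core was in 4 of 6 (Cd300lb, Cd300ld, Cd300lf and Trem1) and in 22.3% of all promoters. C/EBP was matched in Cd300a at -214 to -207 and in Trem2 at 22 to 29, and in 10.4% of all promoters. An AP-1 match lay in Trem2 at -9 to -3, with 7.46% of all promoters holding one. ISRE (3.28% of promoters) and the glucocorticoid element (0.435%) had no match in the 6 windows. No motif was shared by all 4 printed sequences.

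Levels were set side by side between genes per kilobase of annotated exon. The length was that of all annotated exons of a gene together, not of the transcripts expressed, so the order depends on the annotation. With control siRNA and vehicle the order was Trem2 at 1832 ± 108 normalized counts per kilobase (SD, n = 3), Cd300ld at 1452 ± 14.3, Cd300a at 1384 ± 48.3, Cd300lb at 821 ± 61.7 and Cd300lf at 67.1 ± 5.98. Trem1 (0.941 ± 0.155) and Trem3 (0.852 ± 0.0242) came last and overlapped each other, while all other neighbours in the order were apart. With Dex+LPS and control siRNA the order was Trem2 (706 ± 122), Cd300ld (247 ± 14.9), Cd300a (138 ± 21.1), Trem1 (76.3 ± 22.4), Trem3 (41.4 ± 10.2), Cd300lf (6.09 ± 1.36) and Cd300lb (4.61 ± 3.83), where the last pair overlapped. Thus Trem1 and Trem3 went from the bottom of the order to above Cd300lb and Cd300lf. Cd300a passed Cd300ld in the Brg1 arm with vehicle (1645 ± 47.0 against 1388 ± 38.0), and with Dex+LPS in that arm the pair overlapped (331 ± 27.0 and 355 ± 17.3).

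**Figure D3:**
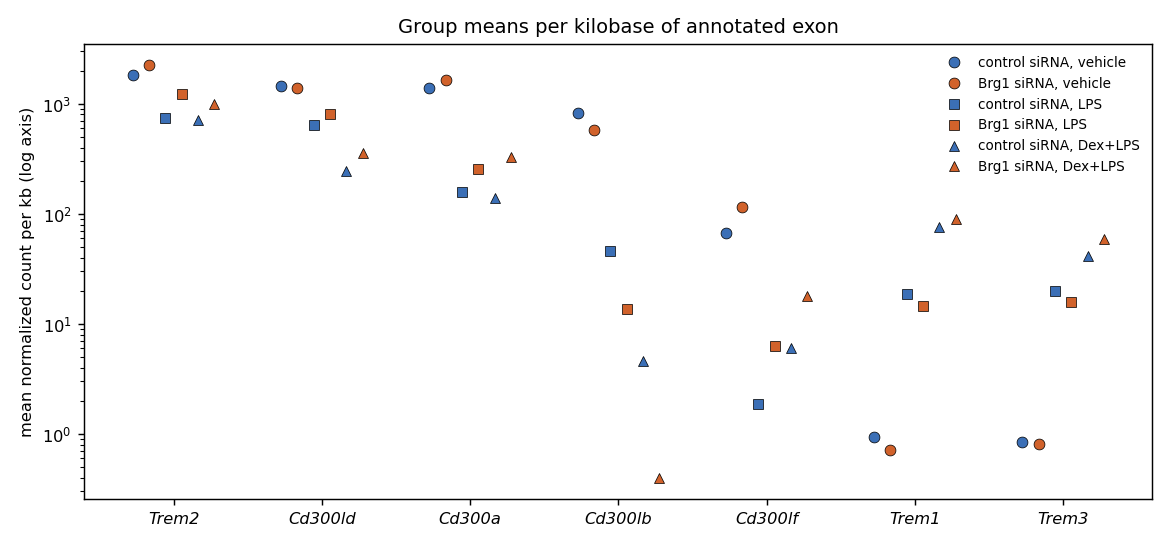
Group means of normalized count per kilobase of exon on a log axis for the 7 tested receptors in the 6 groups. Trem2 is the highest of these 7 in each group, and Trem1 and Trem3 rise from under 1 with vehicle to between 41.4 and 89.8 with Dex+LPS.

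Tyrobp encodes the adaptor that TREM1, TREM2, TREM3 and CD300LB signal through. It is listed at 2920, 2562 and 1248 with control siRNA and vehicle, and at 218, 0 and 0 with Brg1 siRNA and vehicle. All 6 LPS libraries list it at 0. With Dex+LPS it is listed at 0, 111, 913 and 0 in the control arm and at 740, 0, 0 and 0 in the Brg1 arm. In all, 13 of 20 libraries list Tyrobp at 0, the 4 libraries of the other code series among them.

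Within a treatment and siRNA group, libraries at 0 thus stood beside libraries at 218, 740 or 913. Across all 17787 genes, 62 of them (0.349%) are at 0 in 1 library and at 200 or more in another of the same group, 27 of them in at least 2 groups. Tyrobp does so in 3 groups and is the only member that does. In a search of 31-base words over the transcripts of GENCODE vM21, Tyrobp shared none of its 666 words with any other gene. The authors' deposited table gives it log2 fold changes of -27.13 (SE 5.35) for LPS with control siRNA and 22.81 (SE 5.02) for Dex with control siRNA, sizes that come from groups at 0. Whether the zeros reflect transcript levels or the quantification was not tested, so no fold change of Tyrobp is drawn here.

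Fcer1g, the other ITAM adaptor of these receptors, was between 12154 and 24955 normalized counts in all 20 libraries. Hcst, which encodes the adaptor DAP10 and lies next to Tyrobp on chromosome 7, was detected in each library at 34.2 to 93.8. Hcst was higher with Brg1 siRNA under vehicle (0.79 ± 0.16, adjusted p = 0.00189), LPS (0.93 ± 0.16, adjusted p = 0.000263) and Dex+LPS (0.48 ± 0.14, adjusted p = 0.0137). The last call was lost without control replicate 1 (adjusted p = 0.0529).

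**Figure D4:**
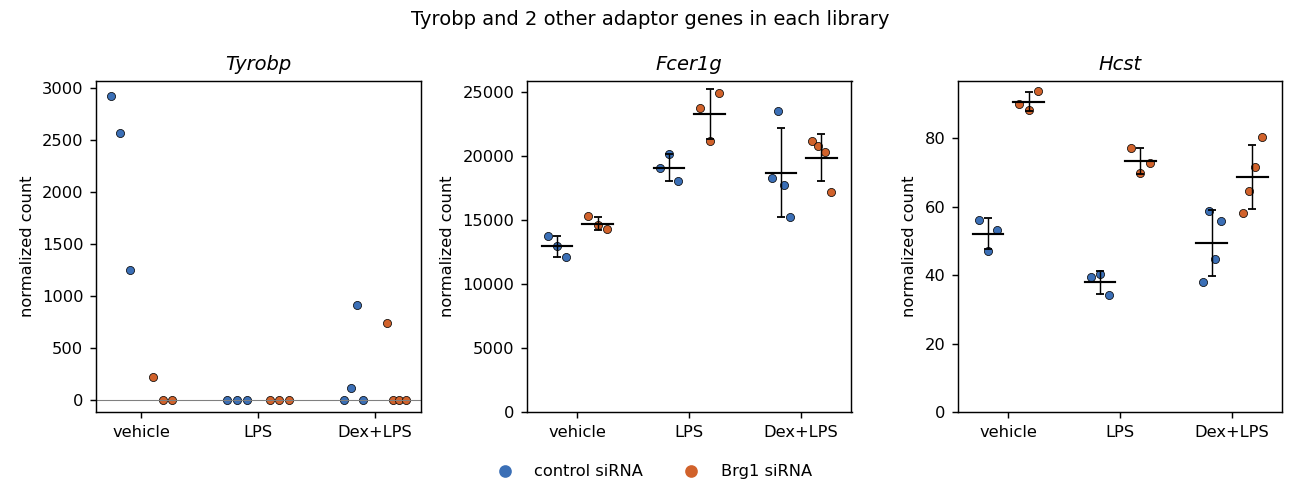
Normalized counts of the adaptor genes Tyrobp, Fcer1g and Hcst on linear axes, 1 point per library, with the mean and SD of each group for Fcer1g and Hcst only. Tyrobp is at 0 in 13 of 20 libraries, while Fcer1g stays between 12154 and 24955 and Hcst between 34.2 and 93.8.

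The CD300 members lie in 1 cluster on chromosome 11 of GRCm38 (GENCODE vM21): Cd300a at chr11:114890041-114904654 on the plus strand, then Cd300lb at chr11:114922781-114934386, Cd300ld at chr11:114982274-114989922 and Cd300lf at chr11:115116214-115133992 on the minus strand. Trem1 (chr17:48232768-48246924), Trem3 (chr17:48247777-48258841) and Trem2 (chr17:48346401-48354147) lie together on the plus strand of chromosome 17, and Tyrobp is at chr7:30413760-30417585 on the plus strand. Members of a cluster can share sequence: 7.51% of the 31-base words of Cd300a, 6.56% of Cd300ld, 4.33% of Cd300lf and 0.703% of Trem1 occur in other genes, and none of those of Cd300lb, Trem2 and Trem3. These shares can blur counts of the first 3 genes, by an amount that was not tested. Cd300lf shares 133 words with Cd300ld. With LPS and control siRNA Cd300ld stood at 1689 ± 118 (SD) normalized counts and Cd300lf at 9.58 ± 4.36. How much of the Cd300lf count came from shared words was not tested.

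Of 17 relatives outside the members, 10 were tested. LPS with control siRNA raised 2 and lowered 7, with a median log2 fold change of -1.48 against -0.04 over all genes tested. Of all genes tested 73% passed in that comparison. Treml1, among the 7 lowered, was at 22.4 to 26.2 with vehicle and at 0 with LPS in the control arm. It passed the filter only through vehicle libraries, so its fall was a condition of being tested. Treml4 (2.63 ± 0.36) and Cd300e (1.59 ± 0.16) rose, but Treml4 was under 10 in all control vehicle libraries and passed the filter only through treated libraries, so its rise was a condition of being tested. Cd300e, a CD300 gene between Cd300ld and Cd300lf, had a pattern unlike its neighbours: 321, 358 and 215 with vehicle, 902, 834 and 900 with LPS, and 184, 143, 150 and 124 with Dex+LPS in the control arm. Dex lowered it by -2.55 ± 0.15 (adjusted p = 9.33e-11). With vehicle the knockdown lowered Cd300e (-0.95 ± 0.16, adjusted p = 0.000253), and its LPS response was larger in the Brg1 arm (interaction 1.24 ± 0.22, adjusted p = 0.00109).

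Under LPS the knockdown raised 4 of the 10 relatives and lowered 2 (median 0.40 against 0.01 over all genes), and under Dex+LPS it raised 4 and lowered 1 (median 0.48 against 0.01). Over all genes tested the knockdown raised 17.3% and lowered 15.8% under LPS, and raised 19% and lowered 15.3% under Dex+LPS, and the counts of the lists that follow stand beside these shares. Cd300c2, between Cd300ld and Cd300e, was higher by 0.50 ± 0.08 (adjusted p = 0.000133) and 0.57 ± 0.07 (adjusted p = 6.22e-06). Its interaction with LPS was 0.43 ± 0.12 (adjusted p = 0.0201), a call lost without control vehicle replicate 1 (adjusted p = 0.0606), Brg1 vehicle replicate 3 (adjusted p = 0.0566) or the 4 libraries of the other code series (adjusted p = 0.0734), and with plain library totals (0.33, adjusted p = 0.072). Cd300ld3 was higher by 0.91 ± 0.09 and 0.89 ± 0.08, but it shares 84.1% of its words with Cd300ld5, so its counts are uncertain. Nfam1, an ITAM receptor gene of another locus, was lower by -0.77 ± 0.09 and -0.50 ± 0.08.

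**Figure D5:**
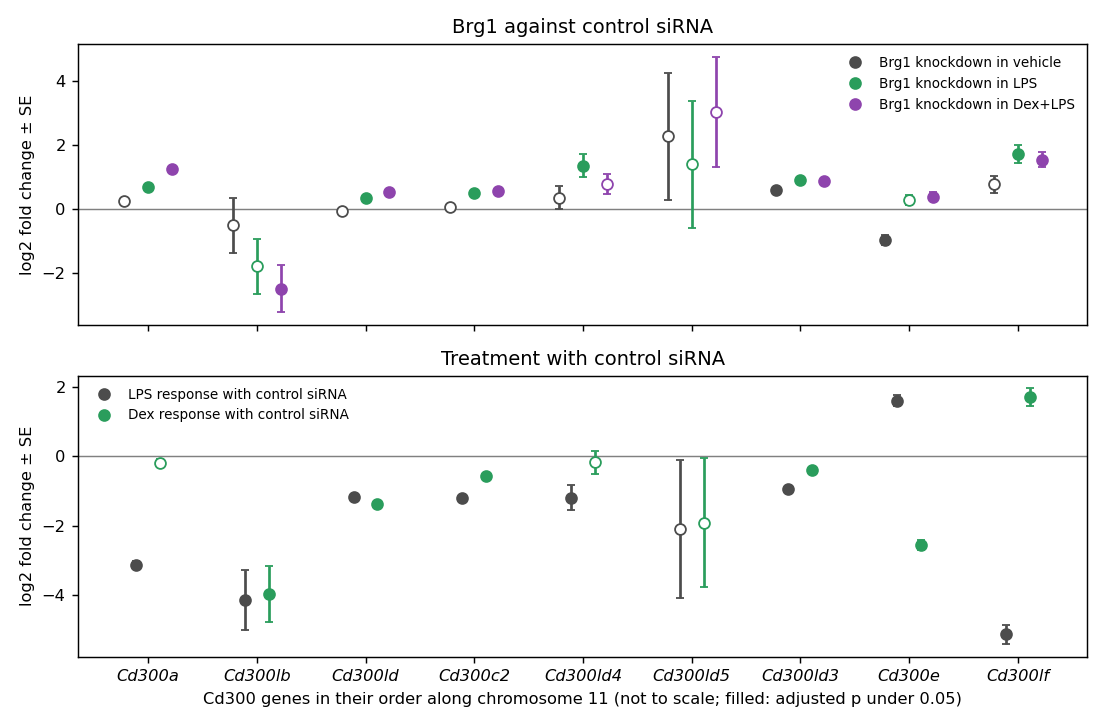
Log2 fold change with SE of the Cd300 genes in their order along chromosome 11 (not to scale), for the knockdown in 3 treatments (top) and for LPS and Dex with control siRNA (bottom), filled where the adjusted p was under 0.05. Cd300lb lies below 0 in the top panel under LPS and Dex+LPS, where Cd300a, Cd300c2, Cd300ld3 and Cd300lf lie above it, and Cd300e is the only gene above 0 for LPS.

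Other receptors that pair with TYROBP had 8 of 13 tested. The knockdown raised 6 and lowered 1 under LPS and raised 5 under Dex+LPS, with medians of 0.56 and 0.57 against 0.01 over all genes, where 33.1% and 34.3% of all genes passed. Cd200r4 led with changes of 1.57 ± 0.09 and 2.22 ± 0.08. LPS with control siRNA raised 4, led by Clec5a (3.25 ± 0.08), and lowered 3, where 36% of all genes rose and 37% fell.

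Of 18 other myeloid genes listed as ITIM receptors, 14 were tested. Whether each mouse protein on the list carries an ITIM was not checked, Cd33 included. The knockdown raised 6 and lowered 2 under LPS and raised 8 and lowered 3 under Dex+LPS. Cd33 (2.51 ± 0.18 and 2.13 ± 0.16) and Lair1 (1.92 ± 0.08 and 1.58 ± 0.07), a collagen receptor, rose most. Siglece (-0.55 ± 0.15 and -0.79 ± 0.13) and Clec4a2 (-0.48 ± 0.11 and -1.02 ± 0.10) fell, the Siglece call under LPS being lost without the 4 libraries of the other code series (adjusted p = 0.0603) at a fold change of -0.55 as before. The medians were 0.15 in both treatments, against 0.01. LPS with control siRNA raised 6, led by Fcgr2b (5.89 ± 0.07), and lowered 5, where 36% of all genes rose and 37% fell. Siglecg, among the 6 raised, was at most 2.62 with control siRNA and vehicle. It passed the filter only through treated libraries, so its rise was a condition of being tested.

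Downstream of ITAM adaptors 28 of 29 listed genes were tested. LPS with control siRNA raised 17 and lowered 8 (median 0.56 against -0.04), led by Malt1 (4.51 ± 0.10), Lcp2 (4.41 ± 0.07) and Src (4.11 ± 0.09). Of all genes tested 36% rose and 37% fell. Dex in the same arm lowered 15 and raised 4, against 25.2% and 23.4% of all genes. The knockdown raised 5 and lowered 9 under LPS and raised 7 and lowered 6 under Dex+LPS, with medians of -0.15 and -0.03. Of 9 phosphatases and adaptors that ITIM receptors recruit, LPS with control siRNA raised 3 and lowered 5, Inpp5d (-2.70 ± 0.09) the most, with a median of -0.26 against -0.04. With 73% of all genes passing, that count is near the general rate. Ptpn6, which encodes SHP-1, was higher with Brg1 siRNA by 0.44 ± 0.05 under LPS and 0.30 ± 0.04 under Dex+LPS.

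Of 9 genes listed as ligands and sheddases of TREM receptors, 6 were tested. Apoe, a TREM2 ligand, was higher with Brg1 siRNA in all 3 treatments (0.90 ± 0.10, 1.07 ± 0.10 and 0.98 ± 0.09). Sdc1, whose tie to TREM receptors was not checked, was lower in all 3 (-0.63 ± 0.09, -0.74 ± 0.09 and -0.93 ± 0.08). Il34, a ligand of TREM2, had 1 read over the control vehicle libraries and 107 over the control LPS libraries, and it passed the filter only through LPS libraries, so it had to differ. All 18 lipid-associated macrophage genes linked to TREM2 were tested. The knockdown raised 10 and lowered 3 under LPS (median 0.35) and raised 11 and lowered 3 under Dex+LPS (median 0.27), against 0.01 over all genes. Gpnmb (0.88 ± 0.10 and 0.79 ± 0.09) and Cst7 (1.03 ± 0.17 and 0.95 ± 0.15) were among those that rose, and Itgax (-1.29 ± 0.07 and -1.72 ± 0.06) and Lpl (-0.41 ± 0.05 and -0.70 ± 0.04) fell.

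For each member the 2 genes with the most similar pattern were found by Pearson's r of log2 values over the 20 libraries, which share groups and scaling. For Cd300a they were Plin2 (r = 0.995) and Adgre5 (r = 0.992), for Cd300ld Atp6v0a1 (r = 0.993) and Tec (r = 0.991), and for Cd300lf Rchy1 (r = 0.979) and Kcnab2 (r = 0.979). Trem2 was closest to Pld4 (r = 0.987) and Syngr1 (r = 0.986), and Cd300lb to Tuba1a (r = 0.971) and Cdt1 (r = 0.970). Trem1 was closest to Pmaip1 (r = 0.986) and Fkbpl (r = 0.984), and Trem3 to Cry1 (r = 0.987) and Spata13 (r = 0.983). Tyrobp had no close match, with 0.791 for Hadhb and 0.785 for Glt8d1. Among the members themselves r was 0.968 for Trem1 and Trem3, 0.948 for Cd300a and Trem2, and 0.931 for Cd300a and Cd300lf.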

How the data were processed

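RNA of 20 libraries was sequenced by the submitters. The labels' protocols name a stranded mRNA kit and also speak of rRNA depletion, so how mRNA was selected is not settled here. The submitters' processing notes name the builds GRCm38.p6 and mm10 and, with no stated roles, R 4.1.0, Salmon 1.4.0, DESeq2 and DESeq. The deposited table holds a normalized signal per gene and library, which its column names call DESeq-normalized, beside the authors' log2 fold changes, their standard errors and their p-values. Standard errors are the other unit the authors deposited. Dividing each column of the deposited signal by the step that 1 read is worth, estimated from its low values, gave whole reads for 99.95% of values above 0 (within 0.01 reads), which gave the depths of 13.7 M to 18.7 M reads.

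The main test was limma 3.58.1 in R 4.3.3, with a trend, on log2(normalized count + 1), fitted to all 20 libraries in 6 groups. Of 17787 genes, 12061 reached 10 normalized counts in 3 or more libraries and were kept. P-values were adjusted by Benjamini-Hochberg over these genes, with a threshold of 0.05. Fold changes are on the log2(value + 1) scale, which tends to understate the change of low genes. It did not for Cd300lb, where Dex with control siRNA gave -3.98 here and -3.33 among the authors' deposited values. Alternatives were a pseudocount of 5, no filter, plain library totals, edgeR 4.0.16 and DESeq2 1.42.0 on the recovered reads, a replicate block, and libraries left out. For the knockdown under LPS, edgeR on recovered reads called 1967 genes higher and 1901 lower, against 2089 and 1906 by limma. The fit was tested on simulated data. Exact intervals of ratios are Clopper-Pearson intervals at 95%.

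The members and the gene lists were chosen with earlier results of these data known. The genes named are the members, Smarca4, the 2 genes most like each member, up to 3 called genes per direction of each list, and the listed relatives; Fcer1g was added after its values were seen. Replicate numbers were not taken as pairs.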

Additional observations from a re-analysis of the deposited data

Results flagged for a closer look

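The 8 members in the 2 Dex+LPS groups, 16 sets of 4 libraries, were screened for a library far from the other 3, and 4 sets had one. Chance flags about 1 in 20 groups, but the count of 4 cannot be read against that rate: Tyrobp was chosen for its zeros, and a set with 3 zeros stands out by construction. Cd300a with Brg1 siRNA was highest in replicate 2, at 1760. Cd300lb with Brg1 siRNA was at 4.62 in replicate 4 and at 0 in the others. Tyrobp was at 913 in replicate 3 with control siRNA and at 740 in replicate 1 with Brg1 siRNA.

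Among the members and the listed relatives, the knockdown difference depended on the treatment, by an interaction term in limma, for 5 genes. Genes of the other lists also passed, among them Lair1 and Fcgr2b with LPS and Cd200r4 and Lpl with Dex. Against vehicle, LPS moved the knockdown difference up for Cd300ld (0.40, adjusted p = 0.00535) and Cd300c2 (0.43, adjusted p = 0.0201). For Cd300e it also moved up (1.24, adjusted p = 0.00109), and for Nfam1 down (-0.95, adjusted p = 0.000112). The difference of Cd300ld went from -0.07 with vehicle to 0.34 under LPS. That of Cd300e was -0.95 with vehicle, and under LPS its means were 879 with control siRNA and 1075 with Brg1 siRNA. Against LPS alone, Dex+LPS made the knockdown difference larger for Cd300a (0.58, adjusted p = 0.0232).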

How the results depend on the processing

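The direction of each member's called fold change held in all alternatives run. Scaling by plain library totals shifted the median of all genes by -0.589 and -0.681 for LPS (control and Brg1 siRNA), by 0.292 and 0.326 for Dex, and by -0.131 and -0.101 for the knockdown under LPS and Dex+LPS, and changed no member's call. Genes called higher and lower became 2423 and 6934 (from 4341 and 4464) for LPS with control siRNA, 2206 and 7409 (from 4275 and 4511) with Brg1 siRNA, 5278 and 1635 (from 2827 and 3041) for Dex with control siRNA, and 5398 and 1229 (from 2575 and 2777) with Brg1 siRNA. For the knockdown they became 1334 and 2910 (from 2089 and 1906) under LPS, 2845 lower (from 1842) under Dex+LPS, and 919 lower (from 609) for the interaction with LPS. Uncalled differences that turned under these totals were Cd300a (0.10) and Trem2 (0.21) for Dex with control siRNA and Trem2 (0.045) for Dex with Brg1 siRNA. For the interaction with LPS, Trem1 was -0.17 with a pseudocount of 5, -0.0021 by edgeR and -0.067 without the 4 libraries of the other code series. For the interaction with Dex, Cd300lb was 0.32 and Cd300lf 0.06 with a pseudocount of 5. With vehicle 1 member was called in place of 0 with a pseudocount of 5, by edgeR and by DESeq2. For the interaction with LPS DESeq2 called 2 in place of 1. For the interaction with Dex DESeq2 called 252 genes lower (from 147). Without the 4 libraries of the other code series, limma called 204 genes higher (from 332), 95 lower and 0 members for that interaction. The cause of these changes was not tested.

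Leaving out 1 library in turn gave 0 to 1 members called for the knockdown with vehicle, 1 to 2 for the interaction with LPS and 0 to 1 for that with Dex. In these fits the uncalled interactions of Trem1 (-0.16 to 0.69) and Trem3 (-0.55 to 0.13) with LPS and of Cd300lf (-0.42 to 0.23) with Dex, Trem3 for the knockdown with vehicle (-0.44 to 0.24) and Trem2 for Dex with control siRNA (-0.17 to 0.018) changed sign. Same-numbered libraries of the siRNA arms deviated together only in 1 of 10 pairs. That pair was at a correlation of 0.406 and both its libraries were of the other code series, while the rest ran from -0.166 to 0.067. The LPS libraries of that code series, control replicate 3 and Brg1 replicate 2, were at 0.2075, the highest of the LPS pairs. With the replicate block 7 members were called for Dex with Brg1 siRNA, Trem2 (-0.35, adjusted p = 0.0163) being the added one, and in the other comparisons the counts of members called were as without it. Depth limits Trem1 and Trem3 with vehicle and Cd300lb with Dex+LPS, each at 10 or fewer reads in at least 1 group.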
